A study of Mus musculus with 33 samples.

Results

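Tongues of mice that express Zac1 (Plagl1) from both alleles were followed from midgestation to the third week after birth. The 6 libraries described are 3 from the postnatal age P20 (days after birth) and 3 from the embryonic age E13.5 (days of gestation), chosen because the labels give them the biallelic genotype and these stages, of 33 samples in the whole series. The labels call the mice Zac1o knockouts that express Zac1 biallelically and describe no further construct. All mice of that group carry the change, so the stages share it. At both ages 3 wild type tongues were also sequenced, and 3 biallelic tongues at birth (P0) divide the span. The labels call the 3 libraries of a group biological replicates. Each library was made from 300 ng of total tongue RNA after removal of ribosomal RNA, with a strand-specific dUTP method and 10 cycles of PCR. RNA was extracted with an AllPrep kit at E13.5 and with TRIsure reagent at P0 and P20, so for any difference from E13.5 the stage and the extraction cannot be told apart, while P20 and P0 share the reagent.

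Plagl1 encodes a zinc finger transcription factor. It is imprinted, that is, normally transcribed from the paternal copy alone, and it belongs to a group of imprinted genes that are abundant in the fetus and decline as growth slows. The tongue is mostly striated muscle under a stratified epithelium. In its development, proliferating myoblasts leave the cell cycle and fuse into fibres, embryonic contractile proteins give way to adult ones, and a thin simple epithelium becomes a keratinized mucosa with papillae.

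Values are log2 RPM, and since RPM (reads scaled to a common library size) are not divided by gene length, levels are compared between stages of 1 gene and not between genes. The libraries held 52965495 to 57209939 reads at P20 and 36832717 to 48026821 at E13.5. Over a group, 3 reads correspond to 0.018 RPM at P20 and 0.0234 RPM at E13.5, counting error only. Of 27825 genes, all on the numbered chromosomes, 13033 reached log2 RPM 0 in at least 3 of the 6 libraries and were tested with limma. Genes with an adjusted p under 0.05 are called changed. A gene that passed the filter only through its level at a single stage had to differ, so list counts that include such genes are descriptions.

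Most of the tested transcriptome differed between the stages. At P20, 5476 genes were higher and 4490 lower than at E13.5, which is 42.0% and 34.5% of the genes tested, and 3067 were not called. Every list count below for P20 against E13.5 is to be read beside these shares. With at least a 2-fold difference as well, 4177 were higher (32.0%) and 3071 lower (23.6%). The median log2 fold change of all tested genes was 0.16. It was -0.14 after quantile normalization, with 4634 higher and 5445 lower, and 0.01 when the reads of AC027184.1 and RNase_MRP, described next, were left out of the totals, with 5031 higher and 5004 lower. The direction of small changes therefore depends on the scaling.

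The change was not spread evenly over genes of different span (the distance from start to end in the genome). Genes in the shortest of 5 span classes, with a median span of 4.4 kb, had a median log2 fold change of -0.64, and genes in the longest class, at 140.9 kb, one of 1.16. Divided at birth, the same medians were -0.91 and 1.12 for P0 minus E13.5, where the extraction reagent changes, and 0.31 and 0.10 for P20 minus P0, where it does not. AC027184.1, an annotated gene of 0.3 kb, held 2894, 2813 and 2303 RPM at P20 and 110542, 98612 and 59666 RPM at E13.5. RNase_MRP, the RNA of a ribosome-processing enzyme, held 1319, 898 and 1079.8 RPM at P20 and 15389.6, 14370.2 and 11722 RPM at E13.5. The part of extraction in these differences was not tested, and a second fit was made after each library's values were centred on the median of genes of like span (10 bins). Its counts are given for every list below in which it moved the number higher or lower by 3 or more, and for some others.

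One library of each age stood apart from the others of its group. Biallelic E13.5 replicate 3 had a mean log2 RPM of 5.65 over 14 hypoxia-response genes, against 2.88 and 3.17 in the other E13.5 libraries and 4.34, 4.29 and 4.51 at P20. Over 8 erythroid genes it had 5.36, against 3.16 and 3.42. P20 replicate 3 had a summed level of 3190.3 RPM over the imprinted genes tested, against 1686 and 1554 RPM in the other P20 libraries, and of 3149 RPM over genes of fatty acid uptake and oxidation, against 1676 and 1868 RPM. Its mean log2 RPM over transcription factors of stratified epithelium was 4.2, against 5.09 and 4.88, and over keratins 5.02, against 5.91 and 5.62. The part of these differences in the results was not tested beyond leaving the libraries out. Without E13.5 replicate 3, 5637 genes were higher and 4504 lower at P20, and without P20 replicate 3, 5316 were higher and 4297 lower. Counts without either library are given for every list below in which they moved by 3 or more, and for some others.

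The genes of largest change were epithelial and muscle genes among those that rose, and embryonic globins, imprinted genes and patterning genes among those that fell. Krt13, the keratin of non-cornified oral mucosa (ENSMUSG00000044041, chromosome 11, 100117327 to 100121566 on GRCm38), was at 4091, 3385 and 2313 RPM at P20 and at 0, 0.5701 and 0.0416 RPM at E13.5. All 3 P20 tongues lay far above the E13.5 tongues (log2 fold change 15.29, SE 1.06, adjusted p = 6.59e-06). Rptn, a cornified envelope protein of the tongue's filiform papillae, was at 1138, 788 and 484 RPM at P20 with 0 reads in all E13.5 libraries, at least 34333-fold higher. Aldh3a1, an aldehyde dehydrogenase of surface epithelia, was at 302, 275 and 120.5 RPM at P20, also with 0 reads at E13.5, at least 9925-fold higher. Among muscle genes Ckmt2, the mitochondrial creatine kinase of sarcomeric muscle, was at 227, 271 and 321 RPM at P20 and at 0, 0.109 and 0 RPM at E13.5 (log2 fold change 12.92, SE 0.62, adjusted p = 1.45e-06). Xirp2, an actin-binding protein of muscle, was at 275, 346 and 482 RPM at P20 and 0, 0.0272 and 0.187 RPM at E13.5. The other rising genes of this group of 12 were Krt76, Krt84, Dmkn, Cdsn, Lyg1, Myh4 and Eef1a2. Genes entered this group and that of the 12 fallers only if the stages did not overlap.

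Of the 12 that fell most, Hbb-y, an embryonic beta-type globin, had 0 reads in all P20 libraries and 242, 332 and 1374 RPM at E13.5, at least 36099-fold lower at P20. Hba-x and Hbb-bh1, the other embryonic globins, also had 0 reads at P20, against 21, 19.1 and 129 RPM and 12.96, 11.9 and 142 RPM at E13.5. For all 3 globins the highest E13.5 value came from replicate 3. Nnat, an imprinted gene for a small membrane protein, had 1 read in the P20 libraries together and 127, 109 and 204 RPM at E13.5, lower at P20 by 25169.8-fold (95% exact counting interval 4517 to 994204). Cldn6, an embryonic claudin of tight junctions, had 0 reads at P20 and 22.8, 25.3 and 17.5 RPM at E13.5, and Foxa2, a transcription factor of endoderm and midline, had 2 reads at P20 and 19.8, 25.8 and 15.8 RPM at E13.5. Cyp26a1, which degrades retinoic acid, was at 0.0175, 0.05301 and 0.0566 RPM at P20 and 15.3, 20.3 and 11.6 RPM at E13.5. Col2a1, Magel2, Tnnc1 and Shh, also among them, are described with their families.

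**Figure D1:**
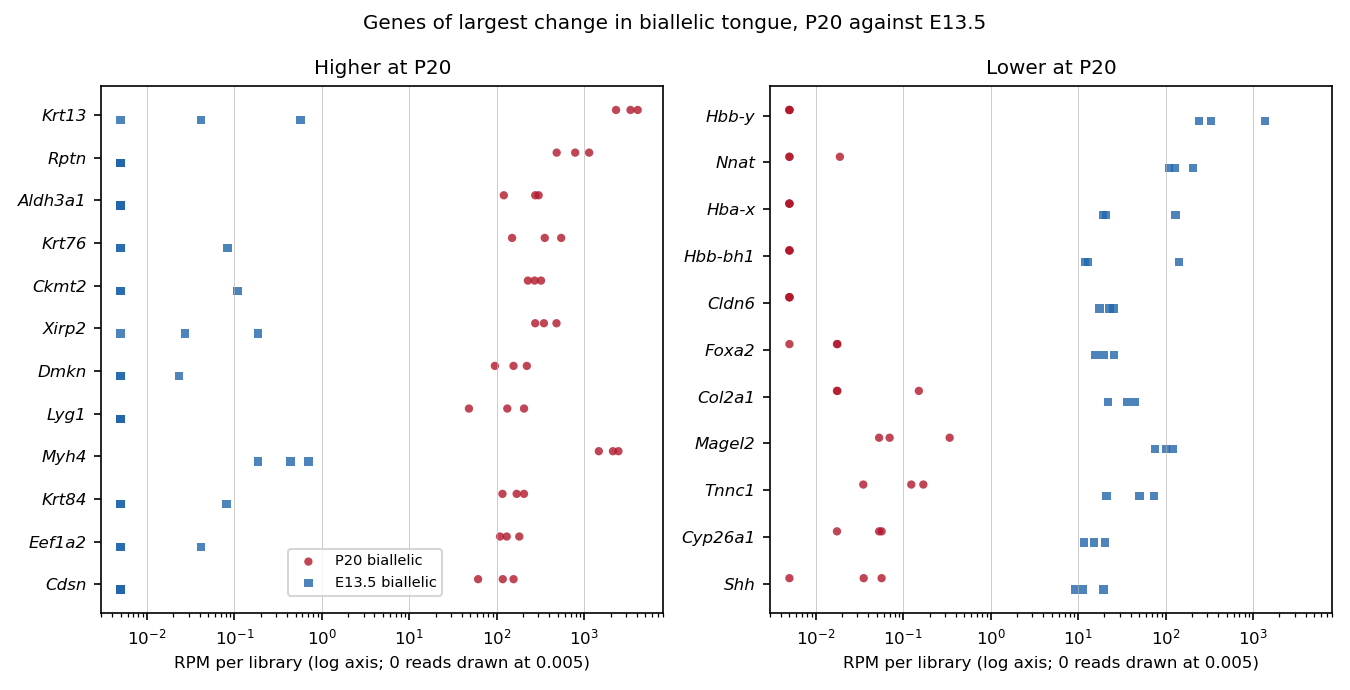
RPM per library on a log axis of genes the text names among the 12 that rose most and the 12 that fell most between E13.5 and P20 in biallelic tongue, with P20 as red circles and E13.5 as blue squares, 3 libraries each, and 0 reads drawn at 0.005. Krt13 and Myh4 pass 1000 RPM in every P20 library, and genes were selected only where the groups do not overlap.

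Plagl1 itself fell. The gene (ENSMUSG00000019817, chromosome 10, 13090691 to 13131694 on GRCm38) was at 77.1, 50.9 and 66.7 RPM at P20 and at 157, 177 and 275 RPM at E13.5, a log2 fold change of -1.62, SE 0.24 (adjusted p = 0.0004). The stages did not overlap. In between it was higher than at either end, with 490, 429.6 and 499 RPM at P0. The rise to P0 was 1.26, SE 0.22 on the log2 scale and the later change -2.88, SE 0.22, both called. Plag1, a paralog with the same kind of zinc fingers, was at 8.06, 5.76 and 3.98 RPM at P20 and 10.5, 13.4 and 17.7 RPM at E13.5 (log2 fold change -1.25, SE 0.29, adjusted p = 0.00453). Plagl2, the third family member, was not called (log2 fold change -0.55, SE 0.25, adjusted p = 0.0695). Phactr2, which neighbours Plagl1 on chromosome 10, was at 60.9, 63.3 and 59.9 RPM at P20 and 22.6, 23.4 and 19.7 RPM at E13.5 (log2 fold change 1.49, SE 0.12, adjusted p = 1.13e-05). Its span is 267 kb, and after centring within span bins its log2 fold change was -0.07 and no longer called.

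Imprinted genes fell together over the span, mostly after birth. Of 36 in the deposited data 32 were tested, of which 1 was higher and 27 were lower at P20, with a median log2 fold change of -1.74, beside 0.16 for all tested genes. Without E13.5 replicate 3 the counts were 1 and 22, and without P20 replicate 3, the highest of its group in the summed level, 1 and 26. Between E13.5 and P0 their median change was 0.53, with 15 higher and 8 lower, where 37.9% of all genes were higher and 37.6% lower. Between P0 and P20 it was -2.76, with 0 higher and 26 lower, where 27.5% of all genes were higher and 15.2% lower.

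Igf2, the fetal growth factor, went through a maximum at birth, with 327, 326 and 501 RPM at E13.5, 1425, 1332 and 1452 RPM at P0 and 82.5, 50.96 and 164 RPM at P20. H19, the noncoding RNA next to it, had 2403, 3142 and 3376 RPM at E13.5, 5017, 5088 and 4707 RPM at P0 and 584, 585 and 1692 RPM at P20. Dlk1, a membrane protein of fetal and regenerating muscle, had 69.1, 69.9 and 156 RPM at E13.5, 285, 244 and 289.5 RPM at P0 and 5.84, 3.78 and 10.6 RPM at P20. All 3 genes were highest at P0 and lowest at P20, with replicate 3 the highest of the P20 libraries in each, and all were called lower at P20 than at E13.5 (log2 fold changes -2.09 for Igf2, -1.82 for H19 and -3.88 for Dlk1). Meg3, a noncoding RNA of the Dlk1 cluster, rose to 1400.4, 1429.5 and 1367 RPM at P0, against 75.3, 115 and 111 RPM at E13.5, and was at 99.2, 73.8 and 132 RPM at P20, so that the 2 ends of the span did not differ by the test (log2 fold change 0.0, SE 0.25, adjusted p = 0.995). Rtl1, a retrotransposon-derived gene of the same cluster, had 2.86, 3.04 and 5.46 RPM at E13.5, 94.8, 93.5 and 88.7 RPM at P0 and 0.192, 0.194 and 0.906 RPM at P20.

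Cdkn1c and Magel2 fell at both steps. Cdkn1c, an inhibitor of cyclin-dependent kinases, had 488, 575 and 988 RPM at E13.5, 322, 253 and 234 RPM at P0 and 13.3, 13.1 and 21.4 RPM at P20. Magel2, from the Prader-Willi region, had 121, 100.5 and 75.4 RPM at E13.5, 14.4, 11.9 and 11.4 RPM at P0 and 0.0699, 0.05301 and 0.3398 RPM at P20. Peg10, derived from a retrotransposon, had 77.7, 71 and 143 RPM at E13.5, 101, 76.1 and 84.1 RPM at P0 and 0.699, 0.9896 and 2.91 RPM at P20. Mest had 164, 176 and 312 RPM at E13.5, 176, 155 and 152 RPM at P0 and 7.202, 4.29 and 14.7 RPM at P20. Neither was called between E13.5 and P0, and both were called lower at P20 than at P0. Airn, the antisense transcript that overlaps Igf2r, was the one imprinted gene called higher, with 166, 145 and 195 RPM at P20 and 25.2, 27.1 and 33.9 RPM at E13.5 (log2 fold change 2.55, SE 0.16, adjusted p = 4.64e-06). The sources used here do not say how reads of overlapping genes on opposite strands were assigned. Meg3 and 3 others were not called.

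**Figure D2:**
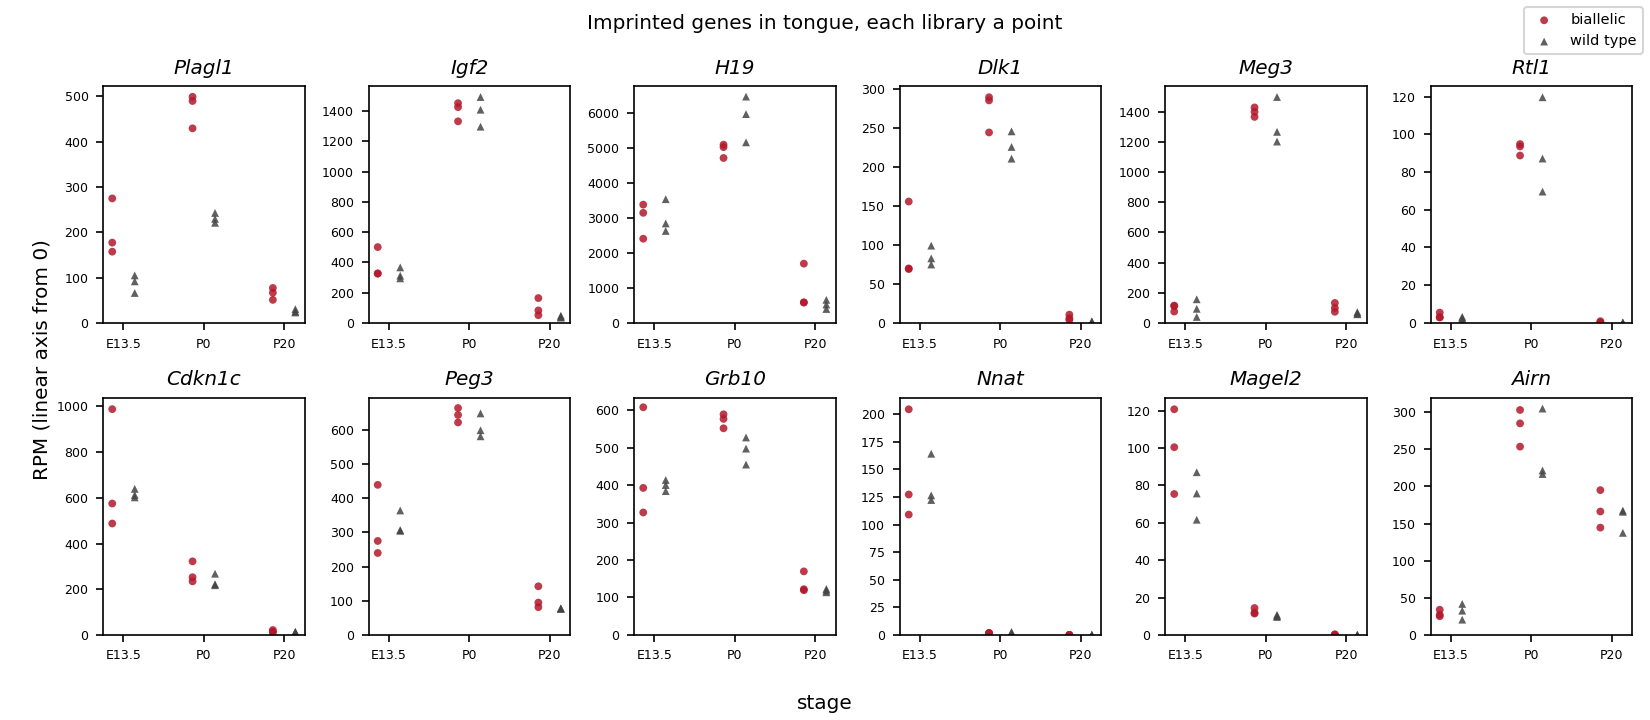
RPM of 12 imprinted genes at E13.5, P0 and P20 on linear axes from 0, with biallelic tongues as red circles and wild type tongues as grey triangles, 3 libraries of each per stage. Plagl1, Igf2, H19, Dlk1, Meg3, Rtl1 and Peg3 are highest at P0 in both genotypes, and Nnat and Magel2 are near 0 at P20.

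Oncofetal growth regulators, proteins that keep fetal cells growing and immature, declined where tested. All 10 tested members were lower at P20, beside 34.5% of all tested genes, with a median log2 fold change of -4.13. Members under 1 RPM in every P20 library, such as Igf2bp1, Hmga2, Mycn and Sox11, passed the filter only through E13.5 and had to differ. The count is therefore a description. Igf2bp1, which binds and stabilizes fetal messenger RNAs, was at 0.157, 0.124 and 0.3398 RPM at P20 and 55.04, 58.05 and 73.7 RPM at E13.5 (log2 fold change -8.36, SE 0.37, adjusted p = 1.1e-06). Hmga2, an architectural chromatin protein, was at 0.664, 0.7599 and 0.302 RPM at P20 and 71.05, 72.6 and 86.2 RPM at E13.5 (log2 fold change -7.16, SE 0.33, adjusted p = 1.29e-06). Both genes dropped in 2 steps, to 12.2 and 14.2 RPM on average at P0. Mycn, a growth-promoting transcription factor, was at 0.2797, 0.247 and 0.736 RPM at P20 and 14.7, 17.1 and 20.4 RPM at E13.5, and Sox11, a factor of progenitor cells, at 0.2098, 0.283 and 0.3398 RPM at P20 and 35.3, 38.5 and 60.2 RPM at E13.5. Lin28b, which blocks maturation of let-7 microRNAs, changed by -3.62, SE 0.38 on the log2 scale. Lin28a and Trim71 did not pass the filter on low values.

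All measured genes of the cell cycle list fell. The 42 members in the table all passed the filter and were lower at P20, 40 of them at least 2-fold, with a median log2 fold change of -3.6. Of all tested genes 34.5% were lower. Members such as Ccne1 passed the filter only through E13.5. Their summed level was 192 to 242 RPM at P20 and 1828 to 2179 RPM at E13.5. Cdk1, the kinase that drives entry into mitosis, was at 2.46, 2.76 and 1.79 RPM at P20 and 58.7, 60.2 and 61.6 RPM at E13.5 (log2 fold change -4.71, SE 0.18, adjusted p = 6.91e-07). Mcm5, a subunit of the replicative helicase, was at 3.46, 3.73 and 3.62 RPM at P20 and 72.2, 84.2 and 91.5 RPM at E13.5 (log2 fold change -4.51, SE 0.13, adjusted p = 3.5e-07). Ccne1, the cyclin of the step into S phase, was at 0.489, 0.389 and 0.5098 RPM at P20 and 18.6, 19.4 and 15.3 RPM at E13.5. Top2a, which untangles DNA before division, was at 16.9, 15.6 and 9.704 RPM at P20 and 216, 260.3 and 341 RPM at E13.5. No P20 value of these 4 genes reached an E13.5 value. Most of the decline lay before birth, with a median of -2.69 for P0 minus E13.5 and -1.0 for P20 minus P0. In whole tongue, fewer dividing cells and less of these RNAs per cell cannot be told apart, and the same holds for every gene list below.

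Genes of this list move together, and many of their promoters carry CCAAT boxes and cell-cycle elements, so the promoters of 3 members are shown, from RefSeq on GRCm38.p6, 250 bases before to 50 after the start, 5′ to 3′ on the gene's strand. Capitals mark the CCAAT box, the core TTTGAA of the cell-cycle homology region and the E2F forms TTTCCCGC, TTTCGCGC, TTTGCCGC and TTTGGCGC, on either strand, with overlapping matches joined.
Cdk1, chr10:69352863-69353162, minus strand: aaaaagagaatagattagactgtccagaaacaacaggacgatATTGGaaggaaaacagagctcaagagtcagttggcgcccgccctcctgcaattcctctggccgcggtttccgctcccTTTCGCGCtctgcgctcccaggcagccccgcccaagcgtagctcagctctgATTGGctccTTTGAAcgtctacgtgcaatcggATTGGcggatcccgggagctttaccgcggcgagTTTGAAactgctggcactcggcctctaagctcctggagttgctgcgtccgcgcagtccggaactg
Mcm5, chr8:75109259-75109558, plus strand: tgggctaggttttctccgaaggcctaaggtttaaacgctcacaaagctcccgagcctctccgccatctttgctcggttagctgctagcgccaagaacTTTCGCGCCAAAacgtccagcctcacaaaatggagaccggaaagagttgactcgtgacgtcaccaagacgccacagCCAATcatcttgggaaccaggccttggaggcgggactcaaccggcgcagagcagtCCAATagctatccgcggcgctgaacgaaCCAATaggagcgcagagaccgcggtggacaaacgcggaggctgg
Top2a, chr11:99024140-99024439, minus strand: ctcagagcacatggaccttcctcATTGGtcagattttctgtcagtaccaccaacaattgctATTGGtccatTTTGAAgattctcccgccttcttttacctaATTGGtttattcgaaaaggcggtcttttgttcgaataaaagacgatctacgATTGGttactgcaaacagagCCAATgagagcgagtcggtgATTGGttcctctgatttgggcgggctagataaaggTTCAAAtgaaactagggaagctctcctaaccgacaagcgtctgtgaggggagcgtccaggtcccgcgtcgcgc
Cdk1 holds 3 CCAAT, 2 TTTGAA and 1 E2F match, Mcm5 3 CCAAT and 2 overlapping E2F matches, and Top2a 6 CCAAT and 2 TTTGAA matches. Of the 32 list members with a promoter in the table, 24 (75%) held CCAAT, 12 (37.5%) TTTGAA and 9 (28.1%) an E2F form, and of all 27025 promoters 37.9%, 18.1% and 2.32% did. A match is a string of letters and not a measured binding site.

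Histones of the replication-dependent clusters, which are made in S phase, fell as well. Of 66 in the deposited data 55 were tested, of which 54 were lower and 0 higher, with a median log2 fold change of -5.22. The 66 summed to 107.9 to 123.9 RPM at P20 and 2279.5 to 3567.8 RPM at E13.5. A member that passed the filter only through E13.5 had to differ, so the count is a description. Of all tested genes 34.5% were lower. Hist1h1a, a linker histone, was at 3.95, 3.89 and 2.59 RPM at P20 and 939.8, 900 and 460 RPM at E13.5 (log2 fold change -7.74, SE 0.3, adjusted p = 7.19e-07). Their median span was 0.5 kb, and after centring within span bins 54 were lower, with a median of -4.7. Members are near-identical in sequence, so reads may be split among them.

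Inhibitors of cyclin-dependent kinases did not move as 1 group, with 1 higher and 3 lower of 6 (2 higher without E13.5 replicate 3, and 2 lower without P20 replicate 3 or after centring within span bins). Cdkn1a, which is induced as muscle and epithelial cells leave the cycle, was at 48.8, 47.8 and 25.9 RPM at P20 and 8.13, 5.29 and 7.02 RPM at E13.5 (log2 fold change 2.55, SE 0.27, adjusted p = 6.36e-05). Cdkn1c, given with the imprinted genes, fell by 5.39 on the log2 scale.

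Cytosolic ribosomal protein genes were lower at P20, with 67 lower and 2 higher of 75 tested and a median log2 fold change of -1.45. Rps14, of the small subunit, was at 89.1, 69.4 and 71.01 RPM at P20 and 1142, 1172 and 1135 RPM at E13.5. The list did not move in 1 direction throughout. Its median was -2.15 for P0 minus E13.5, with 72 lower, and 0.5 for P20 minus P0, with 44 higher and 2 lower. The median span was 3.2 kb, and after centring within span bins 63 were lower over the whole span, with a median of -0.97. Without E13.5 replicate 3, 70 were lower. Rpl3l, a muscle-specific paralog of Rpl3, went the other way, with 33.9, 41.4 and 45.3 RPM at P20 and 3 reads in the E13.5 libraries together, higher by 1712-fold (95% exact counting interval 586 to 8303). The second gene called higher, Rpl28 (adjusted p = 0.0499), stayed called after centring within span bins and lost its call after median centring, quantile normalization and voom, and when any library other than E13.5 replicate 1 was left out. Many ribosomal protein genes have processed copies that can take reads.

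Factors of ribosome assembly and translation showed a paralog exchange as well. Npm1, a nucleolar chaperone, was at 27.97, 22.6 and 22.8 RPM at P20 and 184, 191 and 267 RPM at E13.5, and 14 of 20 tested members were lower. Eef1a1, the general elongation factor, was at 439, 328 and 292 RPM at P20 and 1725, 1842 and 2605 RPM at E13.5. Eef1a2, its muscle and neuron paralog, was at 109, 130 and 181 RPM at P20, with 2 reads at E13.5, higher by 8905-fold (95% exact counting interval 2465 to 73535). Between P0 and P20 the log2 ratio of Eef1a2 to Eef1a1 still differed, with -1.34 ± 0.66 at P20 and -4.42 ± 0.04 at P0 (SD, n = 3).

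Factors that make muscle changed in both directions. Of 24 myogenic regulators 12 were higher and 6 lower, beside 42.0% higher and 34.5% lower of all tested genes, and after centring within span bins the counts were 9 and 9, with a median of -0.09 in place of 0.45. Myod1, which commits cells to muscle, was at 4.33, 3.304 and 4.15 RPM at P20 and 15.7, 17.5 and 31.9 RPM at E13.5 (log2 fold change -2.4, SE 0.27, adjusted p = 8.91e-05). Myog, needed for fibre formation, was at 4.74, 4.24 and 7.06 RPM at P20 and 59.1, 83.1 and 68.1 RPM at E13.5 (log2 fold change -3.73, SE 0.22, adjusted p = 3.08e-06). Myf6, the member of the same family that persists in mature fibres, was at 11.3, 13.54 and 13.1 RPM at P20 and 0.393, 0.516 and 0.0625 RPM at E13.5 (log2 fold change 5.76, SE 0.72, adjusted p = 0.000154). The first 2 fell and the third rose, with no overlap of the stages. Tmem8c (myomaker), required for fusion of myoblasts, peaked at birth, with 4.41, 5.13 and 3.14 RPM at E13.5, 24.8, 23.3 and 25.1 RPM at P0 and 0.157, 0.124 and 0.415 RPM at P20. Nfix, which switches fetal to adult muscle programmes, was at 149, 162 and 155 RPM at P20 and 24.97, 26.8 and 20.9 RPM at E13.5, and the MEF2 factors Mef2a, Mef2c and Mef2d rose by 2.1, 2.53 and 2.4 on the log2 scale. Pax3, a factor of muscle progenitors, was higher at P20, with 19.8, 17.9 and 4.61 RPM at P20 and 2.96, 1.49 and 2.33 RPM at E13.5 (log2 fold change 2.44, SE 0.55, adjusted p = 0.00386), and lost its call after centring within span bins. Pax7, the marker of muscle stem cells, was not called, with 5.96, 5.14 and 8.08 RPM at P20 and 4.74, 4.13 and 6.52 RPM at E13.5.

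The myosin heavy chains, the motor proteins of muscle, changed from embryonic to adult forms by way of a perinatal one. Myh3, the embryonic form, had 174, 263 and 129.7 RPM at E13.5, 512, 474 and 427 RPM at P0 and 0.647, 2.58 and 5.19 RPM at P20. Myh8, the perinatal form, had 28.9, 45.7 and 21.1 RPM at E13.5, 3732, 3914 and 3589 RPM at P0 and 19.8, 21.4 and 51.8 RPM at P20. Myh8 rose by 6.95, SE 0.36 on the log2 scale to P0 and fell by 7.06 after it, and its ends did not differ by the test (log2 fold change -0.11, SE 0.41, adjusted p = 0.808). Myh4, the fastest adult form (IIb), had 0.439, 0.706 and 0.187 RPM at E13.5, 97.7, 99.3 and 62.6 RPM at P0 and 2132, 2463 and 1469 RPM at P20 (log2 fold change 12.32, SE 0.44, adjusted p = 6.43e-07 for P20 minus E13.5). Myh1 (IIx) had 0.785, 0.733 and 0.833 RPM at E13.5, 21.5, 23.2 and 21.6 RPM at P0 and 1801, 2117 and 3439 RPM at P20. Myh2 (IIa) had 0 reads at E13.5, 13.8, 11.4 and 11.8 RPM at P0 and 13.9, 52.6 and 304 RPM at P20, at least 5278-fold higher at P20 than at E13.5. The slow form Myh7 fell to 0.105, 0.106 and 0.113 RPM at P20, against 12.8, 18.9 and 7.43 RPM at E13.5 (log2 fold change -6.82, SE 0.39, adjusted p = 2.72e-06). The Myh2 values spread widely among the P20 tongues, and those of Myh4 and Myh1 within a factor of 2. Mylk2, a kinase of the fast light chain, had 0 reads at E13.5 and 32.6, 47.8 and 62.1 RPM at P20, and Pvalb, a calcium buffer of fast fibres, was at 19.5, 27.9 and 88.1 RPM at P20, against 0, 0.0272 and 0.187 RPM at E13.5.

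The thin filament made the same exchange. Of 12 tested troponins, tropomyosins and sarcomeric actins 6 were higher and 6 lower at P20, the fast troponins, Tpm1, Tpm2 and Acta1 among the first and the slow and cardiac troponins, Tpm3 and Actc1 among the second. Tnni2, the fast inhibitory troponin, was at 288, 364 and 426 RPM at P20 and 9.98, 14.01 and 2.56 RPM at E13.5. Tnni1, its slow form, was at 0.542, 1.11 and 1.32 RPM at P20 and 128, 179 and 41.3 RPM at E13.5. The fast form was higher in every P20 library and the slow form lower. Tnnc2 and Tnnc1, the fast and the slow calcium-binding troponin, showed the same, Tnnc2 with 301, 389 and 457 RPM at P20 and 16.3, 26.2 and 8.52 RPM at E13.5, and Tnnc1 with 0.03496, 0.124 and 0.1699 RPM at P20 and 50.4, 74.4 and 21.03 RPM at E13.5. Tnnt2, the cardiac form of the tropomyosin-binding troponin, was highest at birth, with 15.4, 22.9 and 12.8 RPM at E13.5, 52.5, 49.1 and 47.8 RPM at P0 and 5.51, 5.23 and 2.89 RPM at P20. Acta1, skeletal actin, was at 1318, 1892 and 2736 RPM at P20 and 51.7, 76.5 and 27.1 RPM at E13.5 (log2 fold change 5.32, SE 0.4, adjusted p = 1.04e-05), and Actc1, cardiac actin, the main sarcomeric actin of embryonic muscle, at 8.06, 6.86 and 18.8 RPM at P20 and 157, 207 and 123 RPM at E13.5 (log2 fold change -3.97, SE 0.37, adjusted p = 2.99e-05). Coding sequences of both actins are near-identical, so some reads may be exchanged between them.

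As ratios within a library, which do not depend on the scaling, 27 pairs of paralogs were followed. The log2 ratio of Tnnc2 to Tnnc1 was -1.48 ± 0.17 at E13.5, 5.48 ± 0.08 at P0 and 12.03 ± 0.91 at P20 (SD, n = 3). For Acta1 over Actc1 it was -1.74 ± 0.39, 2.38 ± 0.25 and 7.55 ± 0.49 at the same stages. Both ratios rose before and after birth. For Myh4 over Myh8 the ratio was -6.29 ± 0.45 at E13.5, -5.47 ± 0.33 at P0 and 6.14 ± 1.14 at P20, so the change of this pair fell almost wholly after birth. Of the energy pairs, Eno3/Eno1, Pgam2/Pgam1 and Ckm/Ckb were no higher at P20 than at P0 on average, as Ckm over Ckb, the muscle and brain creatine kinases, with -4.16 ± 2.16 at E13.5, 6.98 ± 0.23 at P0 and 6.82 ± 0.72 at P20. With 0 reads a gene was set to 0.9 reads for its ratio. A ratio shows that the members changed unequally and not which of them changed.

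**Figure D3:**
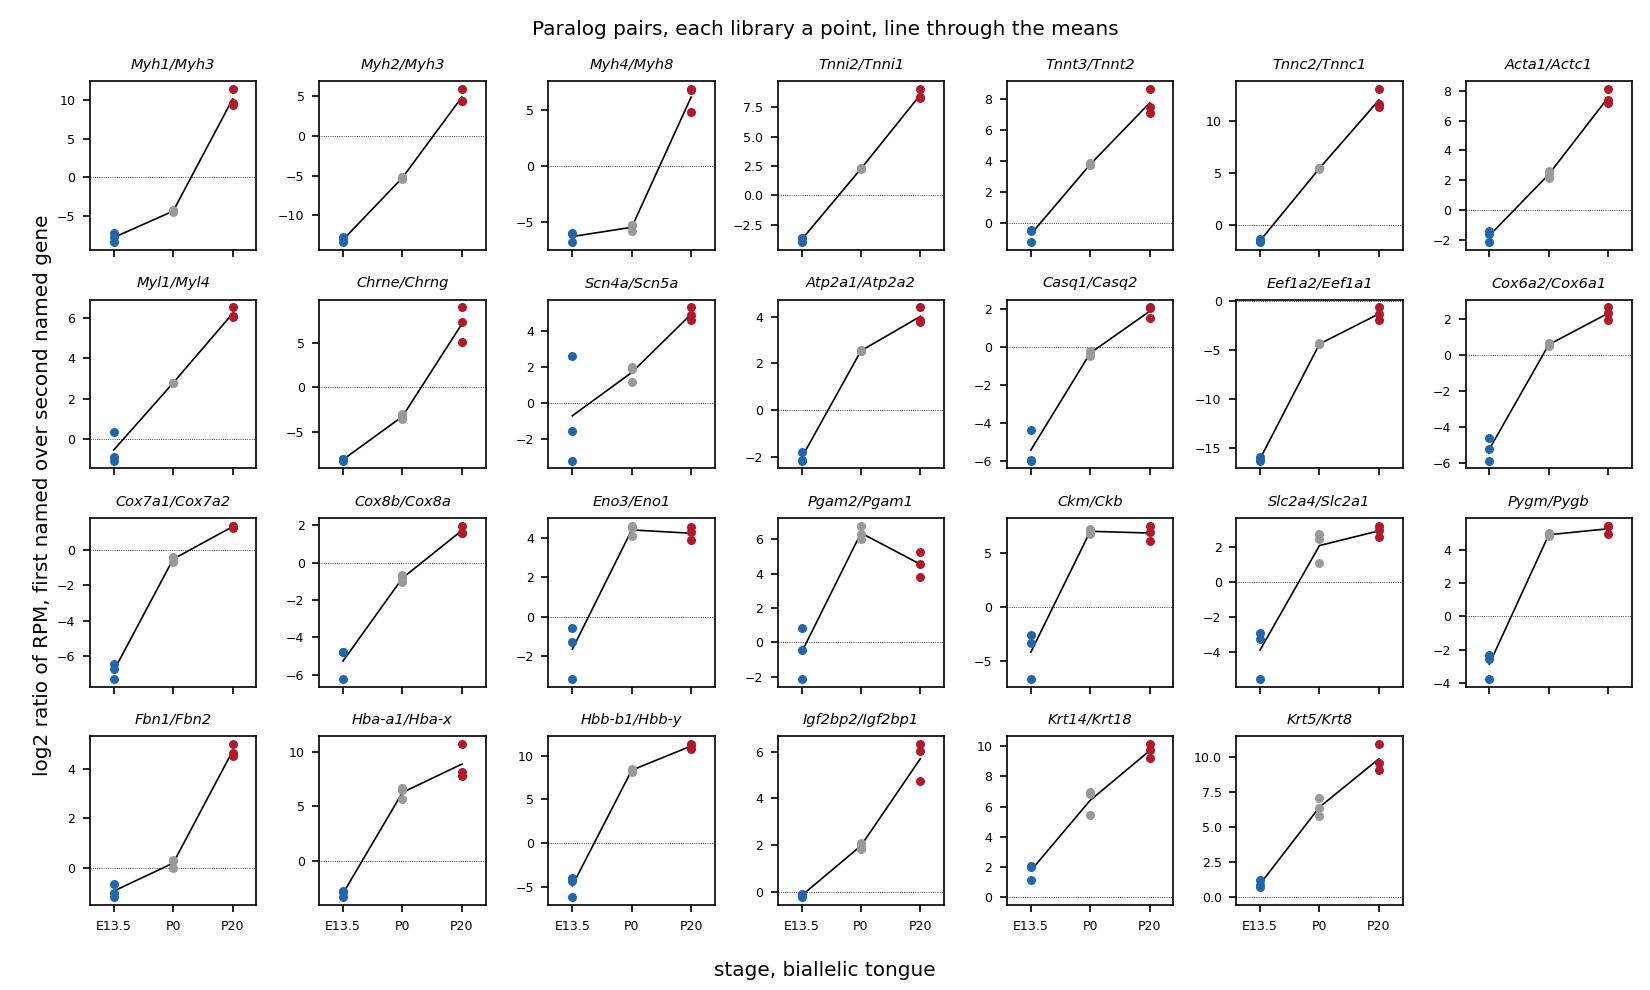
Log2 ratio of RPM, first named over second named gene, for 27 paralog pairs at E13.5, P0 and P20 in biallelic tongue, each library a point and a line through the means. The ratio is higher at P20 than at E13.5 in every pair, Myh4/Myh8 changes sign after birth, and Pygm/Pygb reaches 4.9 at P0 and 5.26 at P20.

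Scaffold proteins of the sarcomere rose as a block, with 21 of 21 higher and a median log2 fold change of 5.68. Of all tested genes 42.0% were higher, and members such as Xirp2 passed the filter only through P20. Ttn, the giant protein that reaches from the Z disc to the M band, was at 14324, 18167 and 23423 RPM at P20 and 328, 326 and 372 RPM at E13.5 (log2 fold change 5.74, SE 0.35, adjusted p = 3.54e-06). Neb, the ruler of the thin filament, was at 2036, 2834 and 3001 RPM at P20 and 45.97, 50.8 and 51.3 RPM at E13.5. Tcap, which anchors titin at the Z disc, was at 136, 239.7 and 156 RPM at P20 and 1.39, 0.9502 and 0.229 RPM at E13.5. For the list the median did not rise further after birth, with medians of 4.8 for P0 minus E13.5 and -0.01 for P20 minus P0. Tcap was an exception with a further 3.25, SE 0.55 after birth on the log2 scale. The median span of the list was 55.8 kb, and all 21 remained higher after centring within span bins.

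Promoters of 2 muscle genes are shown because both genes rose and carry elements known from muscle promoters, again from RefSeq on GRCm38.p6. Capitals mark TATAAA, the E box CAGCTG that MyoD-family factors can bind, and the MEF2 motif, on either strand, with overlapping matches joined.
Myh4, chr11:67237562-67237861, plus strand: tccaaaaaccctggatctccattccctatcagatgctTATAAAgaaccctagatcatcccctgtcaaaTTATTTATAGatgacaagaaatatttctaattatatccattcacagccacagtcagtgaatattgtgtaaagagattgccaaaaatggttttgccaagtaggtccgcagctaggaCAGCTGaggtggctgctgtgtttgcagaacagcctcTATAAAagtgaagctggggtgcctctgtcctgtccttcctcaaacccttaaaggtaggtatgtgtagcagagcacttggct
Acta1, chr8:123894726-123895025, minus strand: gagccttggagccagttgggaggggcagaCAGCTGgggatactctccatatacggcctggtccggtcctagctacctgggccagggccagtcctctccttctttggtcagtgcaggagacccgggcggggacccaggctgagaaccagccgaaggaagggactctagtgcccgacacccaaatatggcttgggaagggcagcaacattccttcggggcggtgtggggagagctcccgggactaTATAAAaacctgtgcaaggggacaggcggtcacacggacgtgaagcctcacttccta
Myh4 holds 3 TATAAA matches, 1 CAGCTG and 1 MEF2 match, of which 1 TATAAA overlaps the MEF2 match, and Acta1 1 TATAAA and 1 CAGCTG. Of 38 promoters of the 3 sarcomere lists, 10 (26.3%) held TATAAA, 14 (36.8%) CAGCTG and 7 (18.4%) the MEF2 motif. Of all 27025 promoters 14.2%, 16.1% and 1.89% did. The 3 lists differed. TATAAA was in 7 of 14 myosin promoters, 3 of 11 of troponins, tropomyosins and actins, and 0 of 13 of the scaffold. In the same order CAGCTG was in 4, 5 and 5 promoters and the MEF2 motif in 3, 0 and 4.

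Genes of calcium handling rose, and single genes of the nerve-muscle synapse changed in both directions. Of 17 calcium-handling genes 15 were higher and 1 was lower (2 without E13.5 replicate 3 or P20 replicate 3). Ryr1, the release channel of the sarcoplasmic reticulum, was at 623, 815 and 852 RPM at P20 and 24.2, 28.5 and 27.8 RPM at E13.5 (log2 fold change 4.82, SE 0.16, adjusted p = 4.92e-07). Atp2a1, the fast-fibre calcium pump, was at 1718, 2115 and 1796 RPM at P20 and 14.8, 21.7 and 17.4 RPM at E13.5. At the synapse, Chrng, the fetal subunit of the acetylcholine receptor, was at 0.0175, 0.05301 and 0.189 RPM at P20 and 5.38, 7.33 and 5.04 RPM at E13.5, and Chrne, the adult subunit, at 8.72, 8.43 and 6.36 RPM at P20 with 0 reads at E13.5. The fetal subunit fell (adjusted p = 0.000116) and the adult one was at least 335-fold higher. Scn4a, the sodium channel of muscle, and Clcn1, its chloride channel, rose by 8.07 and 6.33 on the log2 scale. Over the synapse list 10 were higher and 4 lower of 17, beside 42.0% higher and 34.5% lower of all tested genes. After centring within span bins 7 were higher and 5 lower, so no direction is read for the list as a whole.

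Genes of fatty acid use rose. Of 29 genes of fatty acid uptake and oxidation 27 were higher and none was lower, with a median log2 fold change of 2.5. Without P20 replicate 3, which had the highest summed level, 26 were higher, with a median of 2.22. Cd36, which takes up fatty acids, was at 132, 172 and 289 RPM at P20 and 1.36, 3.45 and 1.75 RPM at E13.5 (log2 fold change 6.54, SE 0.39, adjusted p = 3.28e-06). Pdk4, which holds back the entry of glucose carbon into mitochondria, was at 113, 104 and 517 RPM at P20 and 0.208, 0.244 and 1.06 RPM at E13.5 (log2 fold change 8.91, SE 0.77, adjusted p = 1.97e-05). Ucp3, a mitochondrial carrier of muscle, was at 24.5, 33.3 and 67.2 RPM at P20, with 1 read at E13.5. This list rose at both steps, by 1.25 and 1.24 in the median.

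The respiratory chain rose after birth. Of 43 tested genes 34 were higher and 3 lower at P20 than at E13.5 (5 lower after quantile normalization, and 31 higher and 4 lower without P20 replicate 3). For P0 minus E13.5 the counts were 10 and 14, with a median of -0.11. For P20 minus P0 they were 39 and 1, with a median of 1.09, a step within 1 extraction reagent, beside 0.19 for all tested genes. Cox7a1, Cox6a2 and Cox8b, muscle forms of cytochrome oxidase subunits, had the largest fold changes of the list, with Cox8b at 98.1, 99.3 and 145 RPM at P20, against 2.102, 2.12 and 0.7704 RPM at E13.5. Ppargc1a, a coactivator of mitochondrial genes, was at 222, 89.1 and 153 RPM at P20 and 2.56, 3.31 and 3.998 RPM at E13.5 (log2 fold change 5.48, SE 0.32, adjusted p = 3.21e-06). The 3 that fell were the general forms Cox6a1 and Cox8a and the mitochondrial DNA-binding factor Tfam (log2 fold change -1.28, SE 0.15, adjusted p = 9.18e-05). Cox8a lost its call after centring within span bins.

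Of 26 genes of glycolysis and creatine kinase 14 were higher and 7 lower, beside 42.0% higher and 34.5% lower of all tested genes. After centring within span bins 13 were higher and 4 lower. The number lower was 6 without E13.5 replicate 3 and 5 without P20 replicate 3. Eno3, muscle enolase, was at 291, 370.5 and 349 RPM at P20 and 17.02, 26.3 and 10.02 RPM at E13.5, and Eno1, its general form, at 20, 15.96 and 18.2 RPM at P20 and 40.6, 38.6 and 88.7 RPM at E13.5. Ckm, muscle creatine kinase, was at 981, 1309.8 and 1608 RPM at P20 and 1.06, 1.195 and 0.104 RPM at E13.5 (log2 fold change 11.29, SE 0.84, adjusted p = 9.32e-06). Slc2a1, the glucose transporter of growing cells, was at 14.2, 11.2 and 12.1 RPM at P20 and 49.96, 49.5 and 366 RPM at E13.5, and Slc2a3 at 1.45, 2.39 and 1.28 RPM at P20 and 13.3, 16.3 and 89.2 RPM at E13.5. In both transporters E13.5 replicate 3 was the highest, and all E13.5 values lay above all P20 values. Of 14 glycogen genes 11 were higher, among them Pygm, the muscle phosphorylase, with 324, 392 and 479.5 RPM at P20 and 9.22, 9.83 and 4.48 RPM at E13.5. The brain and liver phosphorylases Pygb and Pygl fell by 2.41 and 2.54 on the log2 scale.

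Keratins, the intermediate filaments of epithelia, changed in both directions. Of 22 tested 15 were higher and 5 lower (16 and 4 after centring within span bins). Krt8, a keratin of simple epithelia, was at 0.402, 0.283 and 0.0566 RPM at P20 and 41.9, 51.6 and 47.2 RPM at E13.5 (log2 fold change -7.97, SE 0.65, adjusted p = 1.5e-05), and its partner Krt18 at 0.315, 0.389 and 0.1699 RPM at P20 and 41.5, 56.5 and 34.4 RPM at E13.5. Krt7 and Krt19 were also lower, with log2 fold changes of -3.67 and -6.05. Krt15, a keratin of the basal layer of stratified epithelia, was the fifth called lower, with 143, 113 and 53.2 RPM at P20 and 223, 245 and 136 RPM at E13.5 (log2 fold change -1.03, SE 0.38, adjusted p = 0.0358), and lost its call after centring within span bins and when E13.5 replicate 1 or 2 or P20 replicate 3 was left out. Krt4, the partner of Krt13 in oral mucosa, was at 3732, 3214 and 2105 RPM at P20 and 4.204, 3.94 and 0.875 RPM at E13.5 (log2 fold change 10.23, SE 0.57, adjusted p = 2.51e-06). Krt84, a hair-type keratin known from filiform papillae, was at 205, 169 and 116 RPM at P20 and 0, 0.0814 and 0 RPM at E13.5. Krt36, another of that kind, was at 269.5, 206 and 119.5 RPM at P20 and 0.208, 0 and 0 RPM at E13.5. In both, 2 or more of the 3 E13.5 libraries had 0 reads. Krt6b was at 117, 81.1 and 119 RPM at P20 with 2 reads at E13.5, and Krt78 at 133, 114 and 63.02 RPM with 0 reads. Krt5, of the basal layer, was at 217, 218 and 109 RPM at P20 and 97.9, 96.1 and 76.5 RPM at E13.5 (log2 fold change 0.95, SE 0.27, adjusted p = 0.0132), and its partner Krt14 was not called (log2 fold change 0.64, SE 0.38, adjusted p = 0.151).

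Genes of the cornified envelope, the crosslinked shell of dying surface cells, were all higher where tested. All 38 tested members were called, their median log2 fold change being 8.58, and 16 of the 45 members in the table had 0 reads at E13.5. A member that passed the filter only through its P20 level had to differ, so the count is a description. All 38 were called higher after centring within span bins too. Lor, the major envelope protein, was at 191, 144 and 94.6 RPM at P20 and 0, 0.272 and 0 RPM at E13.5. Tgm3, the crosslinking enzyme, was at 409, 318 and 238 RPM at P20 and 0.185, 0.0272 and 0.146 RPM at E13.5 (log2 fold change 11.77, SE 0.66, adjusted p = 2.65e-06). Crct1 and Sprr3, small proline-rich and cysteine-rich envelope proteins, were at 102, 88.3 and 55.6 RPM and 55.8, 72.8 and 61.1 RPM at P20 with 0 reads at E13.5. The rise was mostly prenatal, with 38 higher at P0 than at E13.5 and a median of 6.89, and a median of 1.22 between P0 and P20.

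Transcription factors of stratified epithelium were 11 higher and 2 lower of 17, with a median log2 fold change of 1.22. The number lower was 1 without E13.5 replicate 2, 3 without E13.5 replicate 3 and 4 with totals that leave out AC027184.1 and RNase_MRP, and after centring within span bins 9 were higher and 3 lower. Without P20 replicate 3, the lowest of its group, 12 were higher. Trp63, the factor of the basal layer, was at 167, 164 and 99.9 RPM at P20 and 61.4, 73.7 and 86.5 RPM at E13.5 (log2 fold change 0.94, SE 0.23, adjusted p = 0.0058). It spans 208 kb, and after centring within span bins it was called lower, at -0.63 (adjusted p = 0.0182). Grhl1, a factor of the differentiating layers, was at 88.4, 73.4 and 43.7 RPM at P20 and 4.87, 3.94 and 2.12 RPM at E13.5, and Klf4, which acts in barrier formation, at 136, 102 and 53.8 RPM at P20 and 13.6, 16.8 and 12.9 RPM at E13.5. Hopx, a homeodomain-only protein of differentiating keratinocytes, was at 92.5, 63.5 and 39.7 RPM at P20 and 0.762, 1.14 and 1.44 RPM at E13.5 (log2 fold change 5.84, SE 0.34, adjusted p = 3.2e-06). The list's median was -0.1 for P0 minus E13.5 and 1.03 for P20 minus P0.

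**Figure D4:**
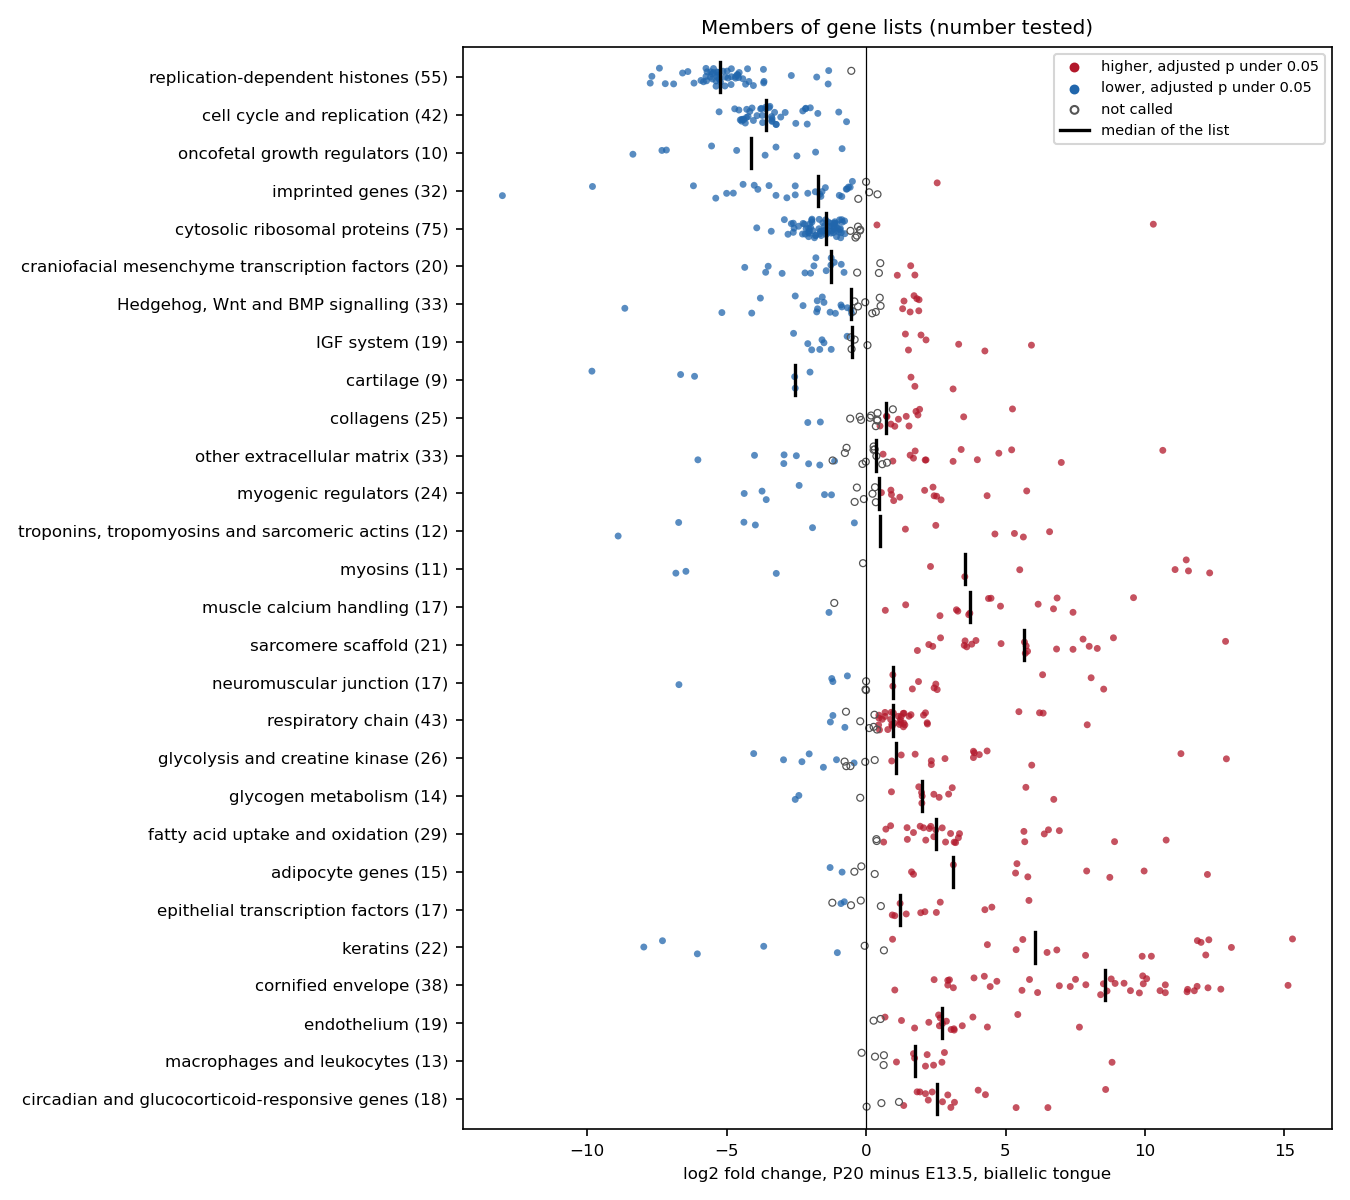
Log2 fold change, P20 minus E13.5, of every tested member of 28 gene lists in biallelic tongue, with the number tested in brackets, red for higher, blue for lower, open circles for genes not called and a bar at the median. Histone, cell-cycle and oncofetal genes lie left of 0 (medians -5.22, -3.6 and -4.13), sarcomere scaffold and cornified envelope genes right of it (medians 5.68 and 8.58).

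Genes of the signals that pattern the embryonic tongue changed in both directions, with more lower than higher. Shh, secreted by the epithelium and the future papillae, was at 0, 0.0353 and 0.0566 RPM at P20 and 11.5, 9.18 and 19.6 RPM at E13.5 (log2 fold change -8.65, SE 0.56, adjusted p = 4.87e-06). Rspo2, which amplifies Wnt signals, was at 0.227, 0.495 and 0.529 RPM at P20 and 2.73, 5.92 and 9.79 RPM at E13.5. Gli1, a target of Hedgehog signalling, fell to 3.74, 2.93 and 2.36 RPM at P20, against 10.5, 10.7 and 8.85 RPM at E13.5. Hhip, another Hedgehog target, was higher, with 10.2, 9.26 and 5.82 RPM at P20 and 1.29, 2.74 and 2.98 RPM at E13.5, as was Gli2, a Hedgehog effector, with 64.2, 71.6 and 46.8 RPM at P20 and 15.6, 18.6 and 16.8 RPM at E13.5. Both genes are long, with spans of 91.9 and 219.5 kb, and lost their calls after centring within span bins. Wnt4 and Wnt10a, Wnt ligands, rose by 1.31 and 1.72 on the log2 scale. Of 33 tested pathway genes 7 were higher and 18 lower, beside 42.0% higher and 34.5% lower of all tested genes, and after centring within span bins 3 were higher and 17 lower. Transcription factors of craniofacial mesenchyme fell, 14 of 20, and 3 rose (1 after quantile normalization, and 12 fell and 4 rose without E13.5 replicate 3). Hand2, a factor of the mandibular arch, was at 1.12, 1.52 and 0.6797 RPM at P20 and 10.8, 10.3 and 15.3 RPM at E13.5, and Barx1 at 0.944, 0.972 and 1.47 RPM at P20 and 12.7, 9.91 and 19.1 RPM at E13.5. The list's decline fell after birth, with medians of 0.05 before and -1.27 after birth.

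Collagen genes rose to birth and declined after it. Of 25 collagens 23 were higher at P0 than at E13.5, where 37.9% of all tested genes were, and between P0 and P20 0 were higher and 16 lower, where 27.5% and 15.2% of all tested genes were. Over the whole span 13 were higher and 2 lower, beside 42.0% higher and 34.5% lower of all tested genes. The number higher was 18 without E13.5 replicate 3 and 10 without P20 replicate 3. Collagen genes are long, with a median span of 114 kb, and after centring within span bins 5 were higher and 9 lower at P20 than at E13.5. For P0 minus E13.5, where the extraction reagent changes, the list's median was 1.73 and that of the longest span class 1.12. The part of span or extraction in the rise to birth was not tested. Col1a1, of interstitial collagen I, had 69.5, 79.8 and 96.2 RPM at E13.5, 553, 318 and 420.1 RPM at P0 and 302, 274 and 352 RPM at P20. Fbn2, the fetal fibrillin of microfibrils, had 91.4, 135 and 141 RPM at E13.5, 228, 209 and 221 RPM at P0 and 6.49, 6.59 and 9.84 RPM at P20. Tnxb, a matrix protein of adult connective tissue, had 0.0462, 0.299 and 0.125 RPM at E13.5, 129, 102 and 127 RPM at P0 and 179, 195 and 201 RPM at P20. Fbn2 fell after birth and Tnxb rose mostly before it. Lama1, the laminin chain of embryonic basement membranes, was at 0.0524, 0.177 and 0.264 RPM at P20 and 7.88, 7.303 and 11.8 RPM at E13.5, and Lama2, the chain of muscle basement membrane, at 165, 188 and 209.8 RPM at P20 and 13.97, 17.8 and 21.8 RPM at E13.5.

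Of 19 genes of the insulin-like growth factor system 7 were higher and 8 lower, shares close to those of all tested genes (42.0% and 34.5%). The number lower was 6 without E13.5 replicate 3, 9 without P20 replicate 3 and 5 without P20 replicate 1 or 2, and after centring within span bins 6 were higher and 9 lower. Igfbp2, a fetal binding protein, was at 64.9, 59.4 and 27.4 RPM at P20 and 218, 259 and 419 RPM at E13.5. Igfbp7, abundant in vessels, was at 62.1, 55.3 and 96.1 RPM at P20 and 0.785, 1.74 and 1.06 RPM at E13.5 (log2 fold change 5.93, SE 0.32, adjusted p = 2.32e-06). The receptors Igf1r and Ghr, the second of them the growth hormone receptor, rose by 1.97 and 2.15 on the log2 scale, and both genes are long, with spans of 274 and 266 kb. Igf1, the postnatal growth factor, was at 10.8, 10.8 and 30.6 RPM at P20 and 33.1, 34.7 and 82.8 RPM at E13.5 (log2 fold change -1.58, SE 0.48, adjusted p = 0.0168), and the call was lost when P20 replicate 1 or 2 was left out.

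Clock and steroid-responsive genes rose, 15 of 18, with none lower. Of all tested genes 42.0% were higher and 34.5% lower, which applies to each list of this paragraph. Zbtb16, a glucocorticoid-induced factor, was at 270.4, 564 and 252 RPM at P20 and 0.832, 0.543 and 1.499 RPM at E13.5 (log2 fold change 8.59, SE 0.42, adjusted p = 1.49e-06). Nr1d1, a repressor of the clock, was at 17.7, 27.8 and 22.9 RPM at P20 and 0.254, 0.163 and 0.354 RPM at E13.5, and Per1 at 46.6, 53.2 and 31.3 RPM at P20 and 4.23, 4.04 and 6.23 RPM at E13.5. The sources used here give no times of day. Immediate early genes, which respond within minutes to stress and handling, were also higher, 12 of 16 with 1 lower (14 and 0 after centring within span bins), as Fos, with 24.1, 20.6 and 6.12 RPM at P20 and 0.693, 0.462 and 3.64 RPM at E13.5. The hypoxia list had 3 higher and 2 lower of 14, and 9 higher and 2 lower without E13.5 replicate 3, while leaving out E13.5 replicate 1 or 2 left 1 higher.

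Counts of markers of other cell types follow, each to be read beside 42.0% higher and 34.5% lower of all tested genes. Endothelial genes rose, 17 of 19 with none lower, their sum reaching 483 to 714 RPM at P20 and 71.05 to 172 RPM at E13.5. Cdh5, the cadherin of endothelial junctions, was at 40.8, 41.1 and 71.2 RPM at P20 and 2.89, 4.1 and 14.2 RPM at E13.5. Macrophage genes rose in 9 of 13 tested, and their sum was 118 to 155 RPM at P20 and 37.6 to 48.9 RPM at E13.5. Mrc1, a receptor of resident macrophages, was at 13.6, 13.9 and 19.7 RPM at P20 and 2.31, 3.502 and 4.87 RPM at E13.5. Adipocyte genes rose in 10 of 15, as Fabp4, a fatty acid carrier that vessels also hold, at 23.7, 21.7 and 46.2 RPM at P20 with 3 reads at E13.5. Adipoq, which defines adipocytes, had 11 reads in the P20 libraries together and 4 at E13.5 and was not tested, while Fasn and Acly, of fatty acid synthesis, were lower at P20. Genes of antigen presentation were 7 higher and 1 lower of 11, as H2-K1, a class I molecule, with 8.02, 7.62 and 9.78 RPM at P20 and 0.0924, 0.244 and 0.875 RPM at E13.5. Of 10 nerve-sheath genes 6 were higher and 2 lower (1 lower without E13.5 replicate 1 or P20 replicate 1 or 2). Ngfr, a receptor of immature Schwann cells, was at 2.04, 2.02 and 2.02 RPM at P20 and 8.2, 7.87 and 15.5 RPM at E13.5.

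Most of the cartilage genes tested fell. Col2a1, its main collagen, was at 0.0175, 0.0177 and 0.151 RPM at P20 and 21.8, 36.2 and 44.5 RPM at E13.5, and Col9a1 at 0, 0.141 and 0.0755 RPM at P20 and 3.23, 6 and 8.74 RPM at E13.5, while Sox6, which muscle also uses, was at 229, 240 and 226 RPM at P20 and 25.8, 26.2 and 27.8 RPM at E13.5. Over the cartilage list 3 were higher (Sox5, Sox6 and Col11a2) and 6 lower of 9 tested, from 17 in the deposited data. Its sum went the other way, with 279.1 to 299.3 RPM at P20 and 87.1 to 142.8 RPM at E13.5. Sox6 held most of the P20 sum. Neuronal genes summed to 3.88 to 6.31 RPM at P20 and 17.4 to 26.8 RPM at E13.5, with 1 higher and 4 lower of 5 (0 higher after centring within span bins). Nefl, a neurofilament, had 3 reads at P20 and 3.996, 6.19 and 11.01 RPM at E13.5. Erythroid genes summed to 36.3 to 86.8 RPM at P20 and 302 to 1716 RPM at E13.5, and 5 of the 13 in the table had 0 reads at P20. The embryonic globin Hbb-y alone held 242, 332 and 1374 RPM at E13.5. Of 8 tested, 4 were lower at P20 than at E13.5, the embryonic globins and Slc4a1. The adult globin Hbb-b1 was the 1 called higher. Between E13.5 and P0, 0 were higher and 7 lower, and between P0 and P20, 4 were higher and 0 lower. Salivary and bone markers were scarce at both ages, with 1 of 15 and 1 of 11 in the table passing the filter. Of 15 taste cell genes in the deposited data 6 passed it, and of these 4 were higher and 1 lower at P20, with a median log2 fold change of 2.43. Entpd2 and Itpr3 were among the higher ones. The 1 lower was Trpm5, a channel of taste transduction, with 0.3496, 0.265 and 0.6797 RPM at P20, against 8.27, 18.1 and 11.5 RPM at E13.5. The part of cell composition in the changes above was not tested.

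**Figure D5:**
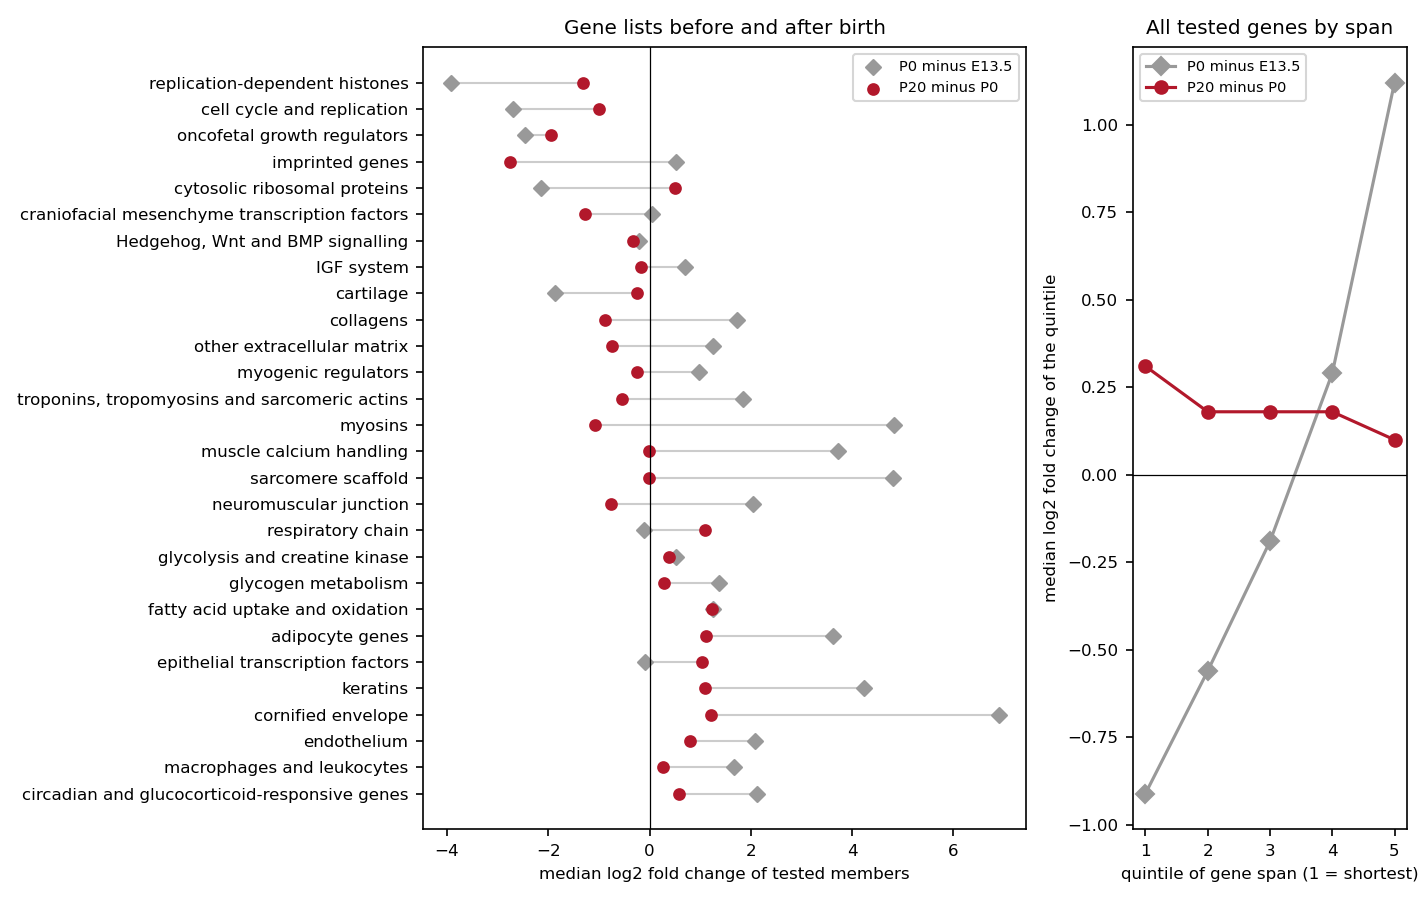
Left, median log2 fold change of the tested members of 28 gene lists for P0 minus E13.5 (grey diamonds) and P20 minus P0 (red circles), and right, the same 2 medians for all tested genes in 5 classes of genomic span. Cornified envelope genes have medians of 6.89 before and 1.22 after birth, imprinted genes 0.53 and -2.76, and the medians by span run between -0.91 and 1.12 for P0 minus E13.5 and between 0.31 and 0.10 for P20 minus P0.

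The 2 steps share the P0 libraries, so they are set side by side and not correlated. Between E13.5 and P0, 4941 genes were higher and 4900 lower. Between P0 and P20, 3579 were higher and 1976 lower, but that split depends on the scaling, with 2498 higher and 2916 lower after median centring and 2681 higher and 3020 lower after quantile normalization.

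Wild type tongues of the same ages give the change with Zac1 expressed from 1 allele. Over the 13033 genes the P20 minus E13.5 change of biallelic and of wild type libraries, which are different animals, had a Pearson r of 0.985 and a Spearman rho of 0.986 across genes. Genes are not independent replicates, so these are descriptions. Tested directly, no gene had a different change in the 2 genotypes (0 called, 0.0% of those tested, limma, smallest adjusted p 0.999), with 413 genes at an unadjusted p under 0.05. With voom on the recovered reads 0 were called and 337 were at p under 0.05. Both numbers lie below a share of 0.05 of the 13033 genes, the share to be found if no gene differed. With 3 libraries in each group this does not show that the genotypes behave alike.

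Plagl1 was at 77.1, 50.9 and 66.7 RPM in biallelic and 23.1, 25.03 and 30.5 RPM in wild type tongues at P20. At E13.5 it was at 157, 177 and 275 RPM in biallelic and 66.1, 105 and 91.7 RPM in wild type tongues. All biallelic libraries lay above the wild type libraries of their age. Its change from E13.5 to P20 was -1.62, SE 0.23 in biallelic and -1.72, SE 0.23 in wild type libraries, and their difference 0.1, SE 0.33 (log2; p = 0.764, adjusted p = 0.999). The median change of the cell cycle list was -3.6 in biallelic and -3.52 in wild type tongues, and that of the cornified envelope list 8.58 in biallelic and 8.58 in wild type tongues. For imprinted genes it was -1.74 in biallelic and -2.42 in wild type tongues, a difference that was not tested as a list. The biallelic median depended on single libraries, being -2.11 without P20 replicate 3 and -1.56 without E13.5 replicate 3.

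The 10 genes of smallest p for a difference between genotypes were Rnls, Olfr78, 2610528E23Rik, Tcea3, Ttll7, Rasgrf2, Phactr2, Rab11b, Ildr2 and Tcp11l2, none past the threshold. Rnls, which encodes the oxidase renalase, was at 8.37, 10.2 and 10.3 RPM in biallelic and 12.7, 13.8 and 9.06 RPM in wild type tongues at P20, and at 0.993, 1.17 and 1.21 RPM in biallelic and 0.414, 0.515 and 0.444 RPM in wild type tongues at E13.5 (difference of the changes -1.58, SE 0.3, p = 0.000167, adjusted p = 0.999). Phactr2 changed by 1.49 in biallelic and 0.91 in wild type tongues, a difference of 0.58, SE 0.15 (p = 0.0019, adjusted p = 0.999).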

How the data were processed

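RNA of 18 mouse tongue libraries was sequenced, and 9 of them are biallelic. The authors deposited log2 RPM per gene and library, with 0 reads written as 0.9 reads. Per the submitters' processing notes, reads were trimmed with Trim Galore 0.4.2 and mapped with TopHat2 2.1.0 to GRCm38. The sources used here do not give the read counter, its strand setting or the annotation, so values of overlapping, antisense and near-identical genes are uncertain.

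Read totals were recovered by taking the lowest deposited value of each library as 0.9 reads. With these totals 100.0% of values under 1000 reads came out whole within 0.05 reads. No 2 libraries of the same stage and genotype agreed within sampling noise, and pairs across groups were not compared.

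Genes reaching log2 RPM 0 in 3 or more of the 6 libraries entered limma 3.58.1, run in R 4.3.3 (trended prior variance, Benjamini-Hochberg adjusted p under 0.05). The steps through P0 and the comparison with wild type were each fitted in 1 model over the same genes. The pipeline was tested on simulated data. A fold against 0 reads is set against 3 reads over the group, and with 1 to 3 reads it has an exact 95% counting interval. Intervals and floors cover counting error only.

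The genes compared, the 42 lists and the 27 pairs were chosen with earlier results of these data known. Named genes are Plagl1, the 12 risers and 12 fallers of largest fold change with at least 10 RPM and no overlap, members of the pairs, up to 6 called members of each list in each direction at 5 RPM or more, members that go against their list, and the 10 smallest p-values between genotypes. Others, such as Top2a, Ttn, Neb, Krt4, Trp63, Pax7, Lor, H19, Dlk1, Meg3, Rtl1 and Tmem8c, were added with their values seen. Results of a few genes that these rules select are not reported here. Alternatives were other scalings, filters, a pseudocount of 1 RPM, voom, no variance trend, a replicate block, 1 fit of all 12 libraries of both ages, and each library left out.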

Additional observations from a re-analysis of the deposited data

How the results depend on the processing

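Gene counts between P20 and E13.5 ranged from 7986 with a filter at 5 RPM to 11569 with no filter, and from 9146 to 10141 with each library left out (5071 to 5637 higher, 4075 to 4504 lower). For P0 minus E13.5 the range without each library was 9145 to 9918, and for P20 minus P0 4138 to 6539 (2579 to 4232 higher, 1509 to 2307 lower). Between P20 and P0 the share of called genes that were higher depended on the scaling. It was 64.4% as deposited, 46.1% after median centring (2498 higher and 2916 lower) and 53.1% with voom (3092 higher and 2735 lower), and lower genes numbered 3020 after quantile normalization and 3057 after centring by gene span, an alternative chosen after the dependence on span was seen. Between P20 and E13.5, centring by span gave 4527 higher and 5187 lower. The cause of these shifts was not tested. The comparison of genotypes called 0 genes in every setting except the one without a filter, with 1. Centring by gene span turned the sign of 3 long genes, Phactr2 (-0.07, adjusted p = 0.642), Trp63 (-0.63, adjusted p = 0.0182) and Pax7 (-0.77, adjusted p = 0.0208, not called as deposited).

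The replicate numbers were not treated as pairs, since the correlations of deviations between E13.5 and P20 libraries of 1 number were 0.14, 0.01 and 0.12. With the replicate block 9944 genes were called between P20 and E13.5, 9848 between P0 and E13.5, 5508 between P20 and P0, and 0 between genotypes.

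Of 318 genes examined for P20 minus E13.5, 274 kept their direction and side of the threshold in every setting tried, and in all 5554 of 5699 values did. Meg3 and Myh8, not called as deposited, moved around 0. Meg3 was at -0.1 after median centring, -0.03 on listed reads, -0.56 after quantile normalization (adjusted p = 0.046), -0.09 with voom, -0.17 after centring by span and -0.15 with totals without AC027184.1 and RNase_MRP, and between -0.21 and 0.21 with each library left out. Myh8 was at 0.18 without E13.5 replicate 2, at 0.14 without P20 replicate 1, at 0.08 without P20 replicate 2 and below 0 without any other library. At 3 reads over a group, levels under 0.018 RPM at P20 and 0.0234 RPM at E13.5 were not detectable.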

Other observations

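A few genes, picked here after their values were seen, were higher at birth than at either end of the span. Cma1, a chymase of mast cells, had 0, 0.0543 and 0 RPM at E13.5, 6.58, 8.67 and 9.201 RPM at P0 and 1.19, 1.096 and 2.23 RPM at P20, and it was called higher at P20 than at E13.5 (log2 fold change 5.69, SE 0.7, limma). Mcpt4, another mast cell chymase, had 0, 0 and 0 RPM at E13.5, 3.6, 6.59 and 7.37 RPM at P0 and 0.734, 0.619 and 1.93 RPM at P20, and Cpa3, their carboxypeptidase, had 0, 0 and 0.167 RPM at E13.5, 9.37, 11.8 and 13.2 RPM at P0 and 1.12, 0.919 and 2.27 RPM at P20. Both Mcpt4 and Cpa3 stayed under the filter on low values of the E13.5 and P20 libraries and were not tested. Of the 10 mast cell genes listed 4 were tested, with 2 higher at P20 than at E13.5 and 1, Kit, lower. From E13.5 to P0, 3 of the 4 were higher and 1 lower, and from P0 to P20, 1 was higher and 3 lower. The list summed to 13.96 to 19.05 RPM at P20 and 16.93 to 22.72 RPM at E13.5. Car3, a carbonic anhydrase of slow muscle and fat, had 0.647, 0.5701 and 0.645 RPM at E13.5, 75.8, 66.95 and 68.8 RPM at P0 and 1.01, 1.36 and 5.15 RPM at P20, with log2 changes of 6.83, SE 0.48 to P0 and -5.19, SE 0.48 after it (limma, both called).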
